A study of Mus musculus with 24 samples.

Results

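The 10 genes followed here were the dendritic cell lineage regulators Flt3, Zbtb46, Irf4, Irf8, Batf3, Id2, Spi1, Kit, Dpp4 and Bcl6. They were taken by symbol from the authors' annotation table, 10 of 55487 genes, and each was described across all 8 groups of 1 genotype and 1 day of culture. Each of the 10 passed the filter on low counts. The messenger RNA came from bone-marrow-derived dendritic cells, which are grown from mouse marrow with the growth factor GM-CSF, here at 50 ng/mL. Marrow donors of both sexes were 8 to 10 weeks old, and all 6 carried floxed Arpc4 alleles on both chromosomes (ARPC4 Flox/Flox). The control group, WT below, had no Cre transgene (CD11c-Cre -/-), so it was not wild type at the Arpc4 locus. The knockout group, KO below, had the same floxed alleles and CD11c-Cre +/-. Arpc4 encodes a subunit of the Arp2/3 complex, which nucleates branched actin. The CD11c-Cre transgene is driven by the promoter of CD11c (Itgax), so deletion depends on a cell having begun to express it. Cells were replated on days 4 and 7, and the suspended cells, stated to be over 90% CD11c+, were collected on days 7, 8, 9 and 10. Each group held 3 libraries from 3 mice per genotype. The study's question was how control and knockout cells differentiate over these days, the last of which it took as full differentiation.

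These genes form the known framework of dendritic cell development. Growth factor receptors on marrow progenitors (Kit, then Flt3) keep the precursors alive and dividing, the factor PU.1 (Spi1) opens the myeloid and dendritic programme, and a set of partly opposed factors then separates the conventional dendritic cell types. Irf8, Batf3, Id2 and Bcl6 are known for the type 1 conventional cell (cDC1), Irf4 for the type 2 cell (cDC2) and for migratory cells, and Zbtb46 for all conventional dendritic cells. GM-CSF cultures are known to hold dendritic cells beside macrophages and granulocytes.

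Total counts ran from 19952047 to 31049798 per library, and 14535 genes passed the filter. Arpc4 levels in CPM (counts relative to library size, with trimmed-mean factors) were lower in each KO library than in each WT library of the same day, by 12% to 18%, with edgeR adjusted p from 0.18 to 0.69. The dendritic cell markers that are not among the 10 (Itgax, H2-Ab1, Cd74, Ccr7) were all present, with sums of 2083 to 11826 TPM (abundance relative to gene length and library size). Neutrophil markers (10 genes) summed to 5677 to 23789 TPM and macrophage markers (11 genes) to 2198 to 4541 TPM, while B cell markers summed to at most 8.17 TPM and T and NK cell markers to at most 12.2 TPM. Of the plasmacytoid dendritic cell markers, Siglech, Ccr9 and Klk1 stayed under 1 TPM in each of the 24 libraries. The mouse numbers of the KO libraries did not keep together across days. Ddx3y, a Y-linked gene, was high in 1 library of each group (56.5 to 83.9 CPM against 0 to 0.136 CPM in the other 16 libraries). In WT it was always number 63, but in KO it was number 64 on days 7 and 9, number 68 on day 8 and number 67 on day 10. None of the 3 KO numbers kept 1 Ddx3y state over the 4 days, so leaving out a KO number below leaves out the libraries that carry it, not 1 animal. Libraries are named by their labels, and whether any were exchanged within or between groups was not tested. Results are given below without the 8 high-Ddx3y libraries where that changed a call.

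Compared per length, the 10 genes spanned a wide range of levels. Median TPM over the 24 libraries was 458 for Spi1 and 396 for Id2, then 62.3 for Irf8 and 54.1 for Irf4. It was 14 for Batf3, 11 for Bcl6 and 5.70 for Kit. The lowest medians were 3.17 for Dpp4, 2.15 for Zbtb46 and 0.765 for Flt3. Flt3 rested on 21 to 200 counts per library, and Zbtb46 and Dpp4 on at least 46 and 48 counts.

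From day 7 to day 10 the regulators moved in both directions. In WT, 8 of the 10 passed the test, against 37.0% of all genes tested in the same comparison. Zbtb46, Irf4, Dpp4, Kit and Id2 rose, while Irf8, Batf3 and Bcl6 fell. In KO, 7 of the 10 passed, against 36.8% of all genes, and 5 of these rose and 2 fell. The KO count was 4 without KO 64 (21.9% of all genes called) and 4 with only the compared libraries fitted (24.6%). The 7 were among the 8 called in WT, with the same signs, and Batf3 was the exception. The median absolute log2 fold change of the 10 was 1.05 in WT and 0.84 in KO, beside 0.29 and 0.28 over all genes. In bulk RNA, a change in the share of cells that carry a transcript and a change in the amount per cell cannot be told apart, which holds for each value below.

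**Figure D1:**
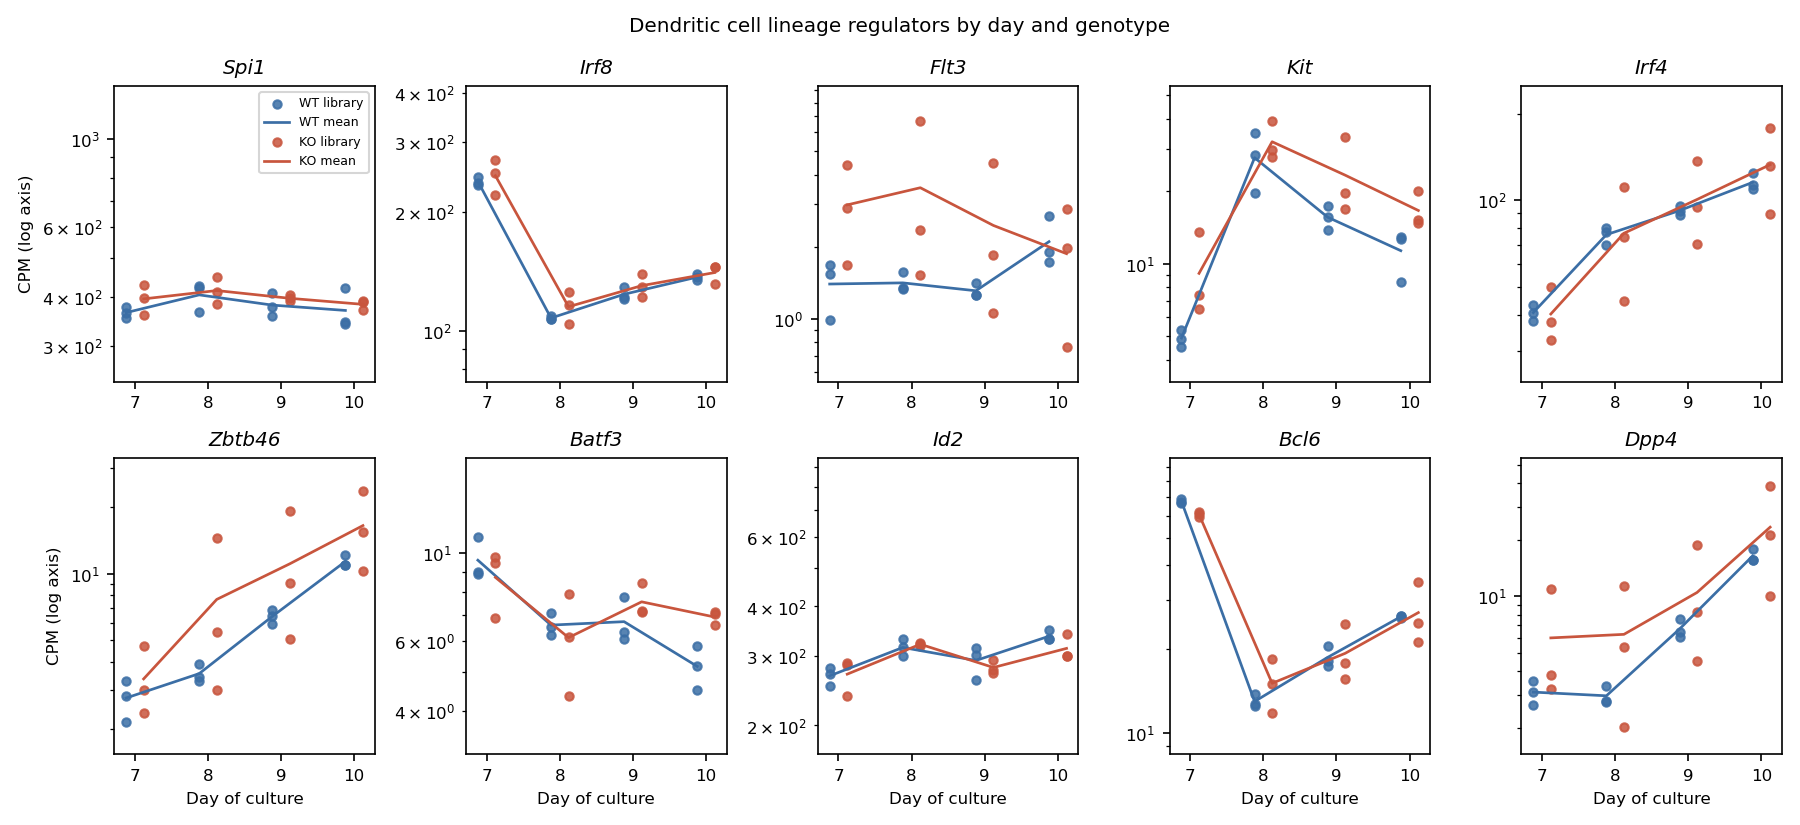
CPM (log axis) of each regulator against day of culture, with 1 point per library, WT in blue and KO in red, and lines through the group means. Zbtb46, Irf4 and Dpp4 climb in both genotypes, Irf8 and Bcl6 fall to day 8, Kit peaks on day 8, and the KO points of Flt3, Zbtb46, Irf4 and Dpp4 spread more widely than the WT points.

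Zbtb46, Irf4 and Dpp4 had the largest rises from day 7 to day 10. Zbtb46 encodes a zinc finger repressor that marks conventional dendritic cells. Irf4 encodes an interferon regulatory factor that pairs with PU.1 on DNA. Dpp4 encodes the surface peptidase CD26, found on conventional dendritic cells and their late precursors. Because these genes rose together, the 300 bases around their RefSeq start sites (250 before and 50 after, GRCm38.p6) are shown, with motif matches in capitals. They lie at chr13:30748983-30749282 on the plus strand for Irf4, chr2:181424339-181424638 on the minus strand for Zbtb46 and chr2:62412182-62412481 on the minus strand for Dpp4.
Irf4: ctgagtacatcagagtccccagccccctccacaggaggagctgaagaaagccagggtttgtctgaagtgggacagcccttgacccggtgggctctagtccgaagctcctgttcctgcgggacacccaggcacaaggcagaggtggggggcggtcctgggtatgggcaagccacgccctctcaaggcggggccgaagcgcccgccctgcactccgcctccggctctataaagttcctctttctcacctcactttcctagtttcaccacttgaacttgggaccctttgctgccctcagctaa
Zbtb46: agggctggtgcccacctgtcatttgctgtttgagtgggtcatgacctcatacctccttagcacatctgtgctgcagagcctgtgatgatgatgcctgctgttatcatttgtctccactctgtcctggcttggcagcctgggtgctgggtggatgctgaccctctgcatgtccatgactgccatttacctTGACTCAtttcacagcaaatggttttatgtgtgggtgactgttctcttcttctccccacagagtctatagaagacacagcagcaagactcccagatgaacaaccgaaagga
Dpp4: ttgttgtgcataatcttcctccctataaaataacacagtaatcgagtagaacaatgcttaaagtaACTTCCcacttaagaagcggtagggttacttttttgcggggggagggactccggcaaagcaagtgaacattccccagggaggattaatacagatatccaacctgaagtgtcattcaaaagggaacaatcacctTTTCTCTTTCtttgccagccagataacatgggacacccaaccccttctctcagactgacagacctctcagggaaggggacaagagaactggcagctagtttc

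These promoters shared no match to the motifs searched, which were read on both strands. In GENCODE M21 the Zbtb46 gene spans chr2:181387762-181459426, so the RefSeq start shown lies inside that span. The Zbtb46 window held 1 match to TGANTCA, the AP-1 element, as TGACTCA at 61 to 55 bases before the start, and 7.81% of all 32851 promoters held that motif. The Dpp4 window held 1 match to the core of the interferon-stimulated response element (GAAA, any 2 bases, GAAA), read as TTTCTCTTTC at 52 to 43 bases before the start (3.44% of all promoters). It also held GGAAGT, the PU.1 core, as ACTTCC at 185 to 180 bases before the start (23.8% of all promoters). The Irf4 window held none of the motifs. Over the 12 RefSeq promoters found for 9 of the 10 genes, GGAAGT was also met in Batf3 and Flt3, and the ETS-IRF composite element (GGAA, any 2 bases, GAAA; 2.72% of all promoters) in 1 of the Bcl6 promoters. A match gives only the letters in that window.

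Zbtb46 rose 4.11-fold in WT and 4.93-fold in KO between days 7 and 10. In WT the 3 libraries read 2.81, 2.15 and 3.29 CPM on day 7 (numbers 63, 65 and 66) and 11, 10.9 and 12.2 CPM on day 10. In KO they read 2.35, 4.71 and 3.00 CPM on day 7 (numbers 64, 67 and 68) and 23.7, 10.3 and 15.5 CPM on day 10. Day 7 and day 10 did not overlap in either genotype, and the KO day 10 libraries were far more spread than the WT ones. The log2 fold change was 2.04 ± 0.48 (SE; n = 3 per group; edgeR adjusted p = 0.0023) in WT and 2.30 ± 0.47 (adjusted p = 7.7e-04) in KO. Between those days, WT means were 3.55 ± 0.33 CPM (SD, n = 3) on day 8 and 6.42 ± 0.45 CPM on day 9. Of the neighbours in the order of the 8 group means, WT day 9 and WT day 8 had separate ranges, and the other pairs overlapped.

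Irf4 rose 2.84-fold in WT and 3.30-fold in KO, and its rise began by day 8. The WT libraries read 38.1, 43.4 and 40.7 CPM on day 7 and 124, 113 and 109 CPM on day 10. The KO libraries read 32.8, 50.1 and 37.9 CPM on day 7 and 178, 89.7 and 131 CPM on day 10. The days were separate in both genotypes, and the mean levels of WT and KO on day 7 were nearly equal (40.7 ± 2.6 and 40.3 ± 8.9 CPM). The log2 fold change was 1.5 ± 0.27 (edgeR adjusted p = 2.0e-04) in WT and 1.72 ± 0.27 (adjusted p = 6.5e-05) in KO. From day 7 to day 8 alone it was 0.90 in WT (adjusted p = 0.010) and 0.93 in KO (adjusted p = 0.0081). The WT call for that step was lost when any of WT 63, 65 or 66 was left out, with adjusted p up to 0.082.

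Dpp4 had the largest rise from day 7 to day 10 in WT among the 10, 5.30-fold, and rose 3.89-fold in KO. The WT libraries read 2.65, 3.09 and 3.55 CPM on day 7 and 17.9, 15.6 and 15.7 CPM on day 10. The KO libraries read 3.23, 11 and 3.81 CPM on day 7 and 38.7, 10.1 and 21.2 CPM on day 10. In WT the days were far apart, but in KO they overlapped, because KO 67 on day 7 read higher than KO 67 on day 10. The log2 fold change was 2.41 ± 0.58 (edgeR adjusted p = 0.0028) in WT and 1.96 ± 0.55 (adjusted p = 0.0084) in KO. Without KO 64 the KO value was 1.08 and the call was lost (adjusted p = 0.18), without KO 67 it was 3.08, and with only the compared libraries fitted it was 1.94 (adjusted p = 0.052). Dpp4 did not pass the test from day 7 to day 8 in either genotype (-0.06 in WT and 0.08 in KO), and its WT means were 2.96 ± 0.32 CPM on day 8 and 6.70 ± 0.80 CPM on day 9.

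The 4 other dendritic cell markers, summed, went the same way, from 2083 to 2736 TPM in the WT day 7 libraries to 6332 to 8689 TPM on day 10. In KO they went from 2594 to 3557 TPM to 5525 to 11826 TPM. By the edgeR test on counts, H2-Ab1 rose by 1.69 in WT and 1.39 in KO (adjusted p = 0.0012 and 0.0055) and Cd74 by 1.51 and 1.25 (adjusted p = 3.7e-04 and 0.0019) on the log2 scale. Itgax (0.25 and 0.39) and Ccr7 (0.31 and 0.50) did not pass it, although in TPM the ranges of Itgax were separate between those days in both genotypes. Markers of other cells moved as well. In WT the neutrophil sum went from 5677 to 11483 TPM on day 7 to 17322 to 23789 TPM on day 10, the sum of 6 monocyte markers from 1527 to 2072 TPM to 3131 to 5160 TPM, and the macrophage sum from 2798 to 3273 TPM down to 2198 to 2491 TPM, with no overlap between the days. In KO the neutrophil sum (8028 to 22669 TPM on day 7, 11200 to 21485 TPM on day 10) and the monocyte sum (1616 to 4345 TPM and 2371 to 4098 TPM) overlapped between the days, and the macrophage sum was lower on day 10 (3029 to 4165 TPM and 2694 to 3019 TPM). These sums rest on a few abundant genes (S100a8 and S100a9 of neutrophils, Chil3 of monocytes, C1qb of macrophages), and other markers moved the opposite way. In WT Csf3r went from 71.5 to 101 TPM down to 39.3 to 45.6 TPM, Mrc1 from 137 to 151 TPM up to 273 to 279 TPM, and Marco from 6.66 to 12.2 TPM up to 15.8 to 50.5 TPM. Gene by gene in WT, 5 of 10 neutrophil markers rose and 2 fell, 2 of 6 monocyte markers rose, and 2 of 10 macrophage markers tested rose and 5 fell. The genes in these sentences were picked after their values were seen. The part of a change in cell mixture in the rises of Zbtb46, Irf4 and Dpp4 was not tested.

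Irf8 and Bcl6 fell sharply over the single day after replating, and their means on day 10 lay between those of days 7 and 8. Irf8 is needed for cDC1 and plasmacytoid cells and for monocytes. The WT libraries read 234, 237 and 245 CPM on day 7, then 107, 109 and 107 CPM on day 8. The KO libraries read 250, 220 and 270 CPM on day 7, then 104, 116 and 125 CPM on day 8. The 6 day 7 libraries were all above the 18 later ones, and the genotypes overlapped on each day. The log2 fold change from day 7 to day 8 was -1.15 ± 0.075 (edgeR adjusted p = 6.0e-10) in WT and -1.10 ± 0.075 (adjusted p = 1.2e-09) in KO. By day 10 the means were 137 ± 2.2 CPM in WT and 140 ± 8.5 CPM in KO, 42.7% and 43.2% below day 7.

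Bcl6 encodes a transcriptional repressor with a part in cDC1 development, and it had the largest fall. The WT libraries read 66.7, 67.3 and 68.8 CPM on day 7, 12.7, 12.5 and 13.8 CPM on day 8, and 26.3, 26.3 and 25.8 CPM on day 10. The KO libraries read 61.9, 60.8 and 59.4 CPM on day 7, 15, 18.5 and 11.8 CPM on day 8, and 34.9, 21.3 and 24.9 CPM on day 10. The day 7 libraries of both genotypes stood above all others, and the 3 KO libraries of that day stood below the 3 WT ones. From day 7 to day 8 Bcl6 was 5.20-fold lower in WT (log2 fold change -2.38 ± 0.17, edgeR adjusted p = 2.0e-09) and 4.01-fold lower in KO (-2.0 ± 0.17, adjusted p = 2.0e-08). From day 7 to day 10 the fall was 61.3% in WT and 55.4% in KO. The falls of Irf8 and Bcl6 in both genotypes, to day 8 and to day 10, held in each of the 17 alternatives run.

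Batf3, the partner of Irf8 in cDC1 development, fell in WT. Its libraries read 8.99, 8.85 and 11 CPM on day 7 and 4.52, 5.84 and 5.18 CPM on day 10 in WT. In KO they read 9.46, 6.86 and 9.77 CPM on day 7 and 7.01, 7.12 and 6.58 CPM on day 10. The WT days were separate, whereas KO 67 on day 7 lay among the KO day 10 libraries. The log2 fold change was -0.89 ± 0.18 (edgeR adjusted p = 5.3e-04) in WT and -0.33 ± 0.17 (adjusted p = 0.14) in KO. Without KO 67 the KO fall was called (adjusted p = 0.027). The difference between the 2 genotypes was 0.56 on the log2 scale, with an unadjusted p of 0.035 and an edgeR adjusted p of 0.74, so it did not pass the test. On day 10 the 3 KO libraries lay above the 3 WT libraries.

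Kit followed a course of its own, with a peak on day 8. Kit is the stem cell factor receptor of progenitors and of mast cells. In WT its libraries read 4.54, 5.34 and 4.88 CPM on day 7, 19.7, 34.7 and 28.2 CPM on day 8, and 8.40, 12.9 and 12.7 CPM on day 10. In KO they read 6.47, 13.5 and 7.41 CPM on day 7, 29.6, 39.0 and 27.6 CPM on day 8, and 20.0, 15.2 and 14.7 CPM on day 10. Day 7 was below each later day in both genotypes. From day 7 to day 8 Kit rose 5.60-fold in WT (log2 fold change 2.48 ± 0.29, edgeR adjusted p = 1.2e-06) and 3.51-fold in KO (1.81 ± 0.28, adjusted p = 3.0e-05). Day 10 remained above day 7 by 1.2 ± 0.29 in WT (adjusted p = 0.0029) and by 0.86 ± 0.28 in KO (adjusted p = 0.019). The WT call was lost without WT 66 (1.11, adjusted p = 0.056). The KO call was lost without KO 64 (0.51, adjusted p = 0.26), without KO 68 (0.81, adjusted p = 0.10), without the high-Ddx3y libraries (0.72, adjusted p = 0.058) and with only the compared libraries fitted (0.85, adjusted p = 0.066).

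Markers of other cells that carry Kit also moved over these days. The 10 mast cell and basophil markers summed to 139 to 181 TPM in WT on day 7, 216 to 306 TPM on day 8, 239 to 293 TPM on day 9 and 128 to 197 TPM on day 10. In KO the sums were 162 to 541, 248 to 552, 354 to 500 and 117 to 230 TPM. Of the 10, Mcpt4 and Cma1 stayed under 1 TPM in each library. In each KO group the library with the most Kit also had the highest sum, and in each WT group number 63 was the lowest in both. This was not particular to these markers. The same KO libraries had the highest dendritic cell and progenitor sums of their groups, and number 63 the lowest progenitor sum of each WT group. The WT ranges of the sum were separate between days 7 and 8, as those of Kit were, and overlapped between days 7 and 10. Prss34 was the most abundant of the 10 in WT, with means of 104 TPM on day 7 and 84.3 TPM on day 10. Between those WT days Cpa3 (10.3 to 13.8 TPM on day 7, 14.2 to 20.9 TPM on day 10) and Hdc (1.76 to 2.90 TPM and 3.95 to 5.17 TPM) had separate ranges with day 10 higher. Tpsb2 had separate ranges with day 10 lower (2.05 to 2.90 TPM and 0.950 to 1.99 TPM), and the ranges of the other 7 markers overlapped. By the edgeR test on counts, 0 of the 8 markers tested rose and 1 fell between those WT days (37.0% of all genes called). From day 7 to day 8, 3 rose and 1 fell in WT (43.4%), and 0 rose and 1 fell in KO (42.0%). Progenitor markers (8 genes) summed to 21.1 to 24.2 TPM in WT on day 7 and 40.9 to 46.7 TPM on day 10, with Meis1, Hlf and Mecom under 1 TPM throughout. The part of mast cells, basophils or progenitors in the Kit values was not tested.

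**Figure D2:**
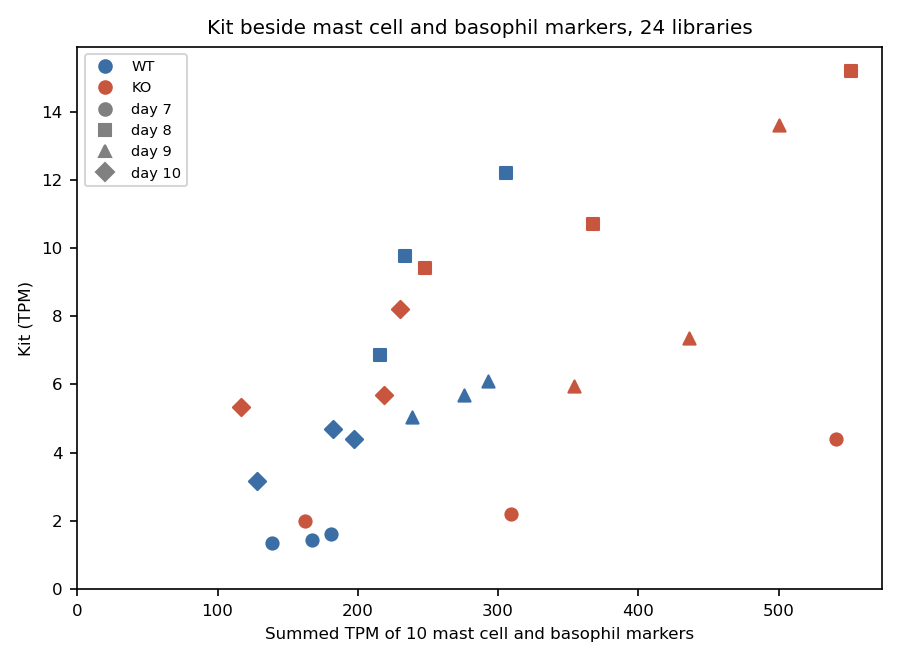
Kit TPM (vertical axis) against the summed TPM of 10 mast cell and basophil markers (horizontal axis) in the 24 libraries, with colour for genotype and shape for day. The KO day 7 library with number 67 has a sum (541 TPM) inside the KO day 8 range but less Kit than any day 8 library, and within each KO day the library with most Kit lies farthest right.

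Flt3, the receptor for the dendritic cell growth factor Flt3 ligand, was low and did not pass the test over time. Its WT libraries read 1.53, 0.983 and 1.67 CPM on day 7 and 1.89, 1.72 and 2.68 CPM on day 10. Its KO libraries read 1.68, 4.37 and 2.91 CPM on day 7 and 2.86, 0.762 and 1.98 CPM on day 10. The WT days did not overlap, the KO days did, and the values had opposite signs (0.59 in WT, edgeR adjusted p = 0.44, and -0.67 in KO, adjusted p = 0.34). The difference between those changes was -1.25 ± 0.76 (adjusted p = 0.86), with a 95% interval from -2.86 to 0.36. The KO change was 0.07 without KO 67 and -1.40 without KO 64, and the difference was -0.52 and -1.99 without them.

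Id2 and Spi1 had the highest levels of the 10 and moved little. Id2, an inhibitor of E proteins that favours conventional over plasmacytoid cells, read 279, 270 and 252 CPM in WT on day 7 and 331, 348 and 330 CPM on day 10. The KO libraries read 237, 284 and 288 CPM on day 7 and 341, 299 and 300 CPM on day 10. The rise of 26.0% in WT was called (log2 fold change 0.33 ± 0.081, edgeR adjusted p = 0.0029). The KO rise of 16.1% (0.22, adjusted p = 0.042) was lost in 5 of the 17 alternatives, among them those without the high-Ddx3y libraries (0.16, adjusted p = 0.12) and without KO 64 (0.07). Spi1, which encodes PU.1, stayed between 341 and 449 CPM in the 24 libraries. Its change to day 10 was 0.02 in WT (adjusted p = 0.90) and -0.05 in KO (adjusted p = 0.73), with group means of 364 to 414 CPM. On the TPM scale it was called in both genotypes, at 0.29 in WT and 0.26 in KO (limma adjusted p = 0.0079 and 0.014). There the median of all genes also moved, by 0.21 and 0.25, and relative to it Spi1 was at 0.08 and 0.01.

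**Figure D3:**
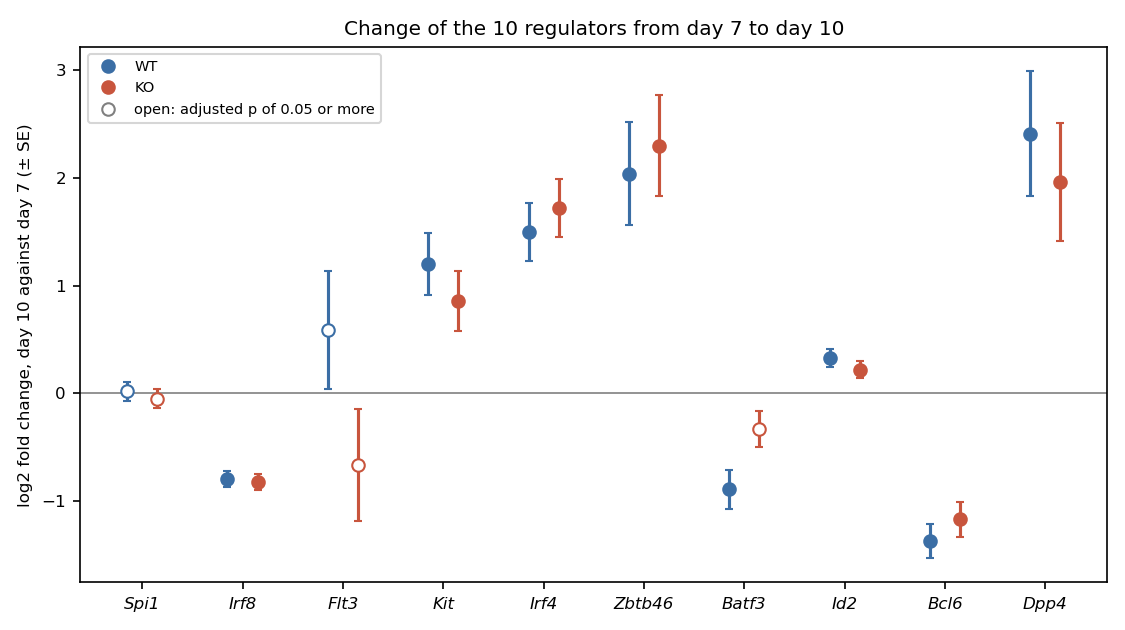
Log2 fold change of day 10 against day 7 for each regulator (points, WT blue and KO red; bars, SE; open points, adjusted p of 0.05 or more; 3 libraries per group). In both genotypes Zbtb46, Irf4 and Dpp4 lie above 1 and Irf8 and Bcl6 below -0.5, Spi1 lies near 0, and the points of Spi1 and Flt3 and the KO point of Batf3 are open.

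Between neighbouring days, the regulators were called for the step from day 7 to day 8. In that step 6 of the 10 passed the test in WT, against 43.4% of all genes, and 7 in KO, against 42.0%. Besides the changes of Kit, Bcl6, Irf8 and Irf4 given above, Batf3 fell (-0.55 in WT, edgeR adjusted p = 0.016; -0.50 in KO, adjusted p = 0.027) and Id2 rose (0.24, adjusted p = 0.022; 0.25, adjusted p = 0.017). In KO, Zbtb46 was the seventh, at 1.21 (adjusted p = 0.045), a call lost in 10 of the 17 alternatives, among them the fit with mouse number as a block (1.02, adjusted p = 0.19). The KO call of Batf3 was lost in 7 of the 17. Its WT call was lost on log2(TPM + 1) and log2(TPM + 0.1) (-0.29 and -0.31, limma adjusted p = 0.17 in both) and without WT 65 or WT 66, as were those of Id2 and Irf4, which left 3 of the 10 called in WT without WT 65 (31.0% of all genes) and 3 without WT 66 (30.3%). Without KO 64, 4 of the 10 were called in KO (31.9% of all genes), and without the high-Ddx3y libraries 5 (40.3%), since Batf3 and Id2 were lost.

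After day 8 none of the 10 passed the edgeR test from one day to the next in the fit of all 24 libraries. That fit gives each gene 1 spread for both genotypes, so the WT steps were also judged by the KO spread. From day 8 to day 9 the count was 0 in WT (5.40% of all genes; 3 of the 10 at an unadjusted p under 0.05) and 0 in KO (2.33%; 3 of the 10). From day 9 to day 10 it was 0 in WT (3.60%; 4 of the 10) and 0 in KO (0.0963%; 2 of the 10). In WT the libraries of neighbouring days were nonetheless separate for Zbtb46, Irf4, Irf8, Kit, Dpp4 and Bcl6 from day 8 to day 9, beside 33.8% of all genes, and for each of the 10 but Spi1 (9 of the 10) from day 9 to day 10, beside 25.9%. In KO 1 of the 10, Id2, had separate ranges in each of these steps (16.8% and 13.0% of all genes). When the WT libraries of those days were fitted alone, these 6 were called for that step (16.6% of all genes), and 4 (Zbtb46, Irf4, Dpp4 and Bcl6) for the step to day 10 (6.26%). Leaving out KO 67, which was the highest or the lowest of its group for Flt3, Zbtb46, Irf4 and Dpp4, gave 4 called in WT from day 8 to day 9 (11.3% of all genes), 3 from day 9 to day 10 (7.25%), and 4 in KO from day 9 to day 10 (14.2%). The counts over all genes rose in these fits too, from 785 to 1653, from 523 to 1064 and from 14 to 2090. DESeq2 called 2 of the 10 in WT from day 8 to day 9 (9.12% of all genes).

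Between the genotypes, none of the 10 passed the edgeR test on any day. On day 7 the count was 0, against 1.45% of all genes (211). It was 0 on day 8 (0.00688% of all genes), 0 on day 9 (0.00688%) and 0 on day 10 (0.0138%). Without adjustment, p was under 0.05 for 1, 2, 1 and 1 of the 10 on days 7, 8, 9 and 10, beside 2280, 859, 1185 and 1061 of all 14535 genes. For the change from day 7 to day 10, 0 of the 10 passed the edgeR test of the difference between genotypes (0.0619% of all genes called; 1 of the 10 at an unadjusted p under 0.05). A p that misses the threshold does not show that the genotypes were alike, and the intervals differ greatly between genes.

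**Figure D4:**
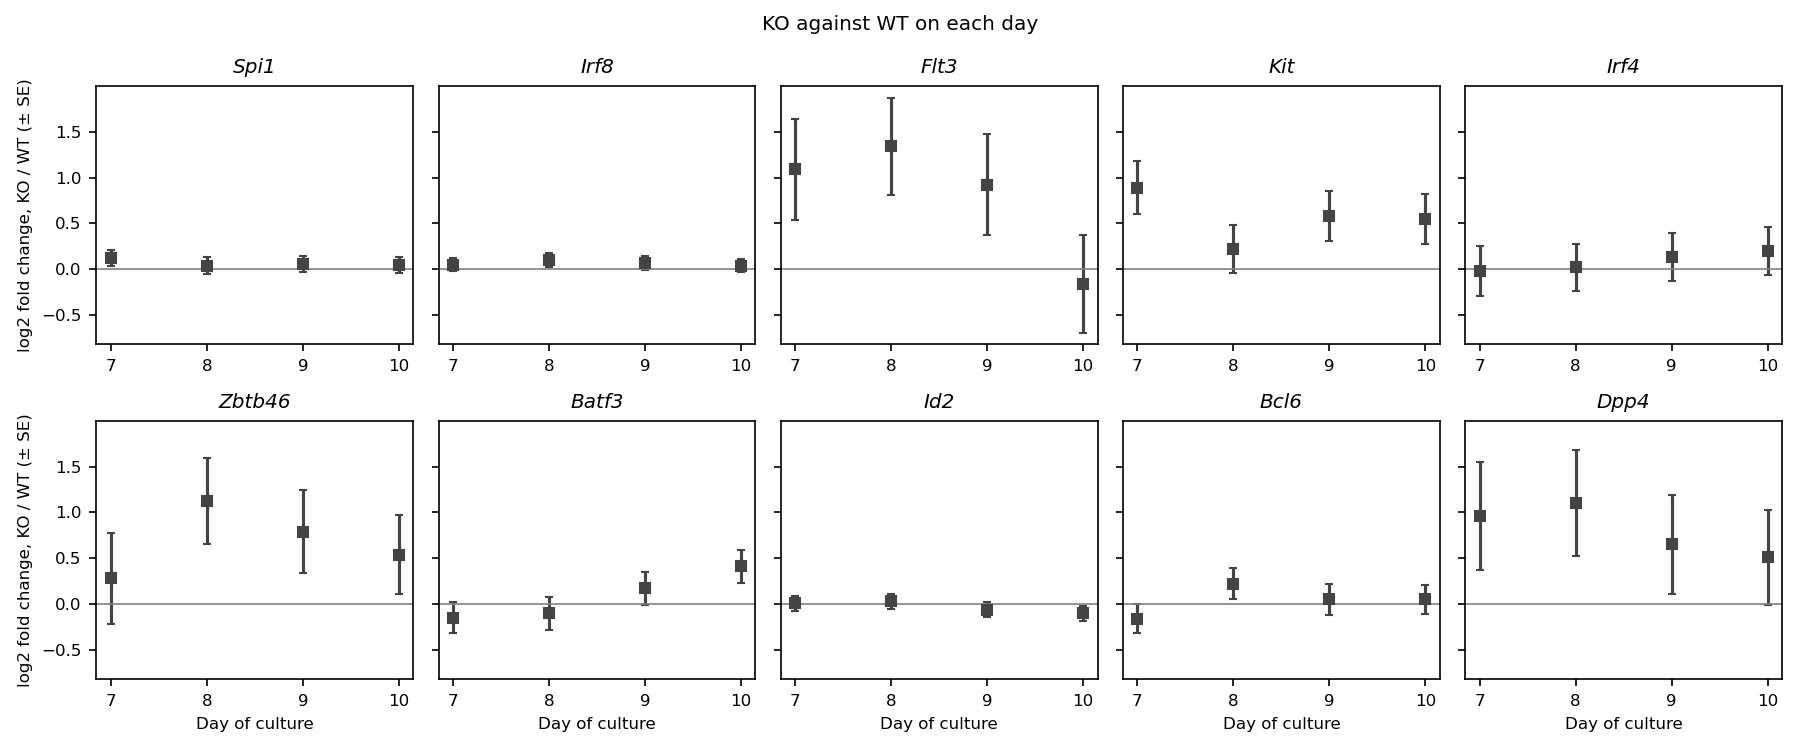
Log2 fold change of KO against WT on each day (squares, with SE bars; 3 libraries per group) for each regulator. Spi1, Irf8 and Id2 stay near 0 with short bars, while Flt3, Zbtb46 and Dpp4 lie between 0.28 and 1.34 on days 7 to 9 with long bars.

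For Irf8, Id2 and Spi1 the difference between genotypes was tightly bounded. Their 95% intervals on the 4 days lay within -0.27 and 0.30 on the log2 scale. For Irf4 the values were -0.02, 0.02, 0.13 and 0.20 on days 7 to 10, with intervals reaching from -0.59 to 0.75. For Bcl6 they were -0.16, 0.22, 0.05 and 0.05.

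Kit was the regulator nearest to a genotype difference. On day 7 the lowest KO library (6.47 CPM) was above the highest WT library (5.34 CPM), and the log2 fold change was 0.89 ± 0.29 (edgeR adjusted p = 0.13). DESeq2 and the edgeR fit without a filter on low counts called it, with a lowest adjusted p of 0.037. On days 8, 9 and 10 the values were 0.22, 0.58 and 0.55, and the day 10 ranges were again separate. The mast cell and basophil sums given above had a higher median in KO than in WT on day 7, at 309 against 167 TPM. Their ranges overlapped (162 to 541 and 139 to 181 TPM). By the edgeR test, 0 of the 8 markers tested were called between genotypes on that day, against 1.45% of all genes. The part of these cells in the Kit difference was not tested.

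Separate ranges were found for few of the other regulators. On day 7 Flt3 (by less than 0.02 CPM) and Kit lay above WT and Bcl6 below, when 26.2% of all genes had separate ranges. On day 10 Batf3 and Kit lay above WT, when 10.4% did. None of the 10 had separate ranges on day 8 or day 9, against 9.39% and 14.1% of all genes. Flt3, Zbtb46 and Dpp4 had the largest KO values on day 8 (1.34, 1.12 and 1.10), with intervals from 0.20 to 2.47, from 0.14 to 2.11 and from -0.13 to 2.32. Their edgeR adjusted p on that day was 0.74, 0.77 and 0.86. Without KO 67 the day 8 values were 0.48, 0.28 and 0.36, and the day 7 value of Kit was 0.52 (adjusted p = 0.38).

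The KO libraries lay farther apart than the WT libraries for Dpp4, Zbtb46, Irf4 and Flt3. The highest KO library of Dpp4 was 3.41, 5.62, 4.13 and 3.82 times the lowest on days 7, 8, 9 and 10, against 1.34, 1.21, 1.25 and 1.14 times in WT. For Zbtb46 the ratios were 2.00, 4.85, 3.74 and 2.30 in KO against 1.53, 1.19, 1.15 and 1.11 in WT. For Irf4 they were 1.53, 2.47, 1.96 and 1.98 in KO against 1.14, 1.15, 1.07 and 1.13 in WT. Flt3 behaved likewise (2.61, 4.41, 4.19 and 3.76 against 1.70, 1.17, 1.12 and 1.55). The SD of log2 CPM was larger in KO for 10, 7, 7 and 7 of the 10 genes on the 4 days, beside 62.7%, 68.0%, 58.3% and 59.8% of all genes, so the direction was common to most genes tested. The KO SD was smaller for Id2, Spi1 and Kit on day 8 and for Batf3, Id2 and Spi1 on day 9. On day 10 it was smaller for Batf3, Spi1 and Kit.

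The same libraries were high and low for several regulators. On day 8 KO 64, 67 and 68 read 5.48, 14.5 and 3.00 CPM for Zbtb46, 5.41, 11.4 and 2.03 CPM for Dpp4, and 74.6, 111 and 44.8 CPM for Irf4. On day 9 they read 5.10, 19.1 and 9.08 CPM for Zbtb46, 4.52, 18.7 and 8.24 CPM for Dpp4, and 70.2, 137 and 94.6 CPM for Irf4. Number 67 was the highest of its group for Flt3, Zbtb46, Irf4, Dpp4 and Kit on days 7 to 9, and number 64 on day 10. The summed 4 dendritic cell markers put the KO libraries in the same order as Zbtb46, Irf4 and Dpp4 did on each day, with 2594, 3557 and 3218 TPM on day 7, 4415, 6727 and 3201 TPM on day 8, 4055, 9683 and 6063 TPM on day 9, and 11826, 5525 and 8439 TPM on day 10. That order was not particular to dendritic cell markers. The progenitor sum gave it on each day, and the neutrophil and monocyte sums on days 7 to 9. The macrophage sum was lowest in the KO library with the most Zbtb46 on each day. The KO library with high Ddx3y was the lowest of its group on all 4 days for Flt3, Zbtb46, Irf4 and Dpp4, as it was for 9.67% of all genes. In WT the high-Ddx3y library was the lowest on all 4 days for Kit (2.84% of all genes). Each of these patterns uses 3 libraries per group, and the part of sex, of the animal or of the cell mixture in them was not tested.

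**Figure D5:**
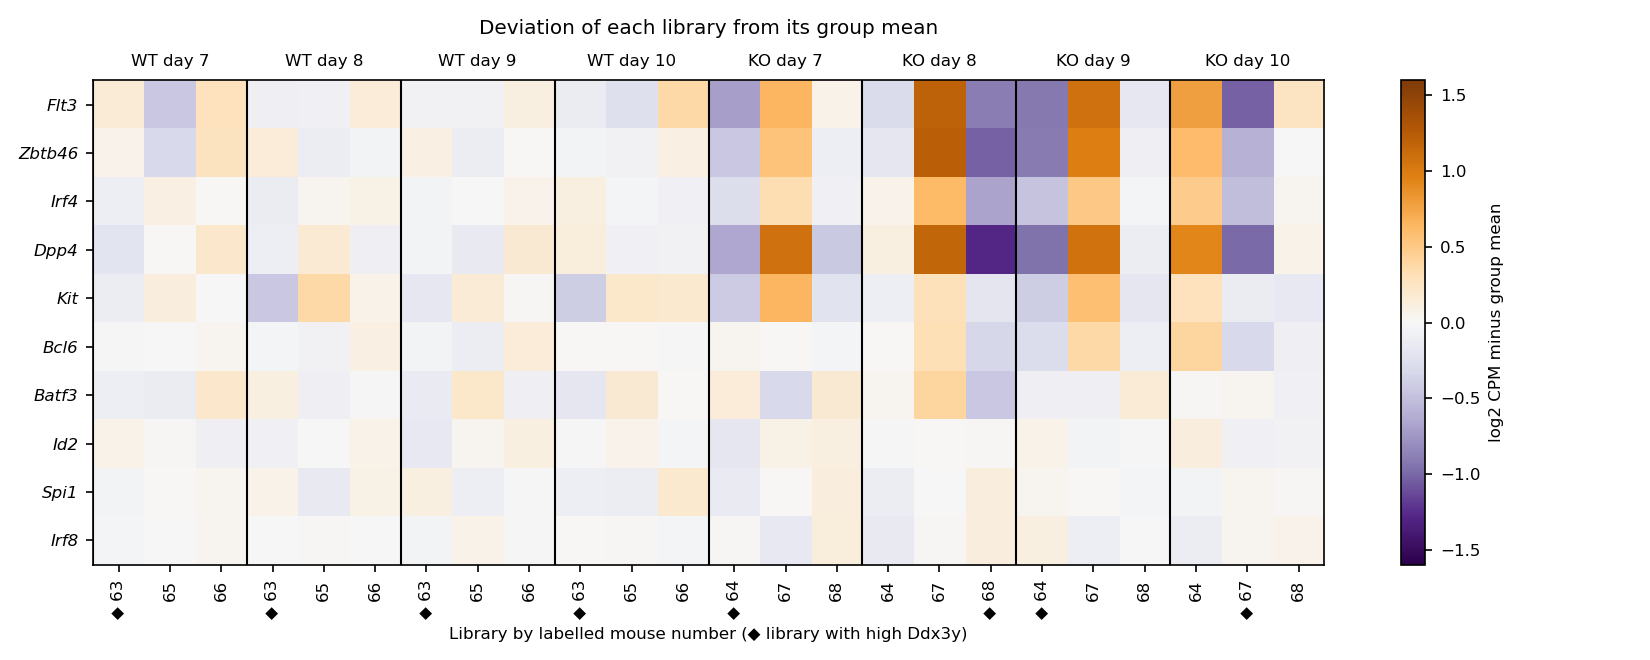
Difference of each library from the mean of its group in log2 CPM (colour scale, orange higher and purple lower) for the 10 regulators (rows) in the 24 libraries (columns, by group and mouse number; diamonds mark high Ddx3y). The KO values reach beyond 1 in size in the rows of Flt3, Zbtb46 and Dpp4, run from -0.68 to 0.62 for Irf4 and stay within -0.18 and 0.14 for Id2, Spi1 and Irf8, while the WT values of the 10 genes lie between -0.44 and 0.37.

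Across the 24 libraries, the genes whose log2 CPM ran most closely with each regulator were named by Pearson's r among 11108 genes, as a description. These points share their day, genotype and library, so they are not independent. For Zbtb46 the nearest were Mtmr4 (0.98) and Heg1 (0.97), for Irf4 Cdh1 and Ap1s3 (both 0.98), and for Dpp4 Zfp366 (0.98) and Rogdi (0.97). Irf8 ran with Phf21a and Rgs2 (both 0.97), Bcl6 with Bcl9 (0.97) and Best1 (0.96), and Kit with Tarm1 (0.96) and Vcan (0.95). The values were lower for the other 4 genes, with Arpc3 (0.86) and Gnb2 (0.85) for Spi1, Il13ra1 (0.84) and Gm15448 (0.76) for Id2, Arhgef10l and Gpr132 (both 0.83) for Flt3, and Pja1 (0.79) and Tbc1d1 (0.77) for Batf3.

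Other genes of the same pathways changed over the same days. Among 10 receptors and ligands of the lineage, 2 rose and 6 fell from day 7 to day 10 in WT, and 2 rose and 5 fell in KO, where 37.0% (WT) and 36.8% (KO) of all genes were called. Cd34, a sialomucin of progenitors, rose by 2.45 in WT and 2.84 in KO on the log2 scale (edgeR adjusted p = 3.0e-04 and 7.9e-05). Csf2rb, the shared beta chain of the GM-CSF receptor, rose by 0.73 and 0.78. Cx3cr1, a chemokine receptor of monocytes and macrophages, fell by 2.24 in WT and by 3.23 in KO, and Csf3r, the G-CSF receptor, fell by 1.2 and by 1.67.

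Among 26 other transcription factors of dendritic and myeloid development, 7 rose and 5 fell in WT, and 9 rose and 7 fell in KO, beside the same 37.0% and 36.8% of all genes called in either direction. Id1, an inhibitor of E proteins like Id2, rose by 2.90 in WT and 2.80 in KO (edgeR adjusted p = 1.5e-07 in both). Zeb2 fell by 0.78 in WT and by 0.69 in KO. Klf4 rose by 0.90 in WT and 0.66 in KO, and Stat5a, which acts below the GM-CSF receptor, by 0.72 and 0.78. Between genotypes 2 of the 26 were higher in KO on day 7. These were Notch2 (0.53 ± 0.10, adjusted p = 0.016, lost in 3 of 17 alternatives) and Batf, a relative of Batf3 (0.38 ± 0.093, adjusted p = 0.043, lost in 10 of 17). None of the 26 was called on days 8 to 10.

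Markers of both conventional types were among the genes that rose. Of 10 cDC2 markers, 6 rose and 0 fell in WT, and 6 rose and 1 (Sirpa) fell in KO, with 37.0% and 36.8% of all genes called. The Sirpa call (-0.33, edgeR adjusted p = 0.042) was lost in 9 of 17 alternatives, and the WT value was -0.21. Among them Cd209a rose by 4.17 in WT and 2.75 in KO, Ltb by 3.20 and 1.96, and Mgl2 by 1.58 and 1.86. Cd209a started from low day 7 means of 0.331 CPM in WT and 0.787 CPM in KO, and Ltb from 2.28 and 5.83 CPM. Of the cDC1 markers 8 of 10 could be tested, and 5 rose and 2 fell in WT, while 4 rose and 1 fell in KO (37.0% and 36.8% of all genes). Itgae, the integrin CD103, rose by 4.69 in WT and 4.17 in KO, from 0.453 ± 0.14 and 0.882 ± 1.1 CPM on day 7. Xcr1 and Cd8a, which define resident cDC1 cells, had at most 25 and 7 counts in a library and were not tested.

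Of 10 genes of dendritic cell identity, 6 rose and 0 fell in both genotypes, where 37.0% (WT) and 36.8% (KO) of all genes were called. Btla, an inhibitory receptor, rose by 4.22 in WT and 2.57 in KO, and Ciita, the activator of MHC class II genes, by 2.91 and 2.16. Btla started from low day 7 means of 1.02 CPM in WT and 3.27 CPM in KO. The KO call of Btla was lost without KO 64 (1.59, edgeR adjusted p = 0.069). The medians of the cDC2 list were 2.02 in WT and 1.07 in KO, and those of the identity list 1.38 and 1.12, beside -0.02 and 0.00 over all genes. None of these genes passed the test between genotypes on any day or in the interaction.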

How the data were processed

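Poly(A) RNA of 24 libraries (8 groups of 3) was sequenced with 2 kinds of stranded kit, not assigned to libraries in the labels. The authors deposited raw counts per gene (whole numbers, not normalized) and TPM per gene. FastQC 0.11.9, STAR 2.6.1, DESeq2 1.22.2 and mm10 are named in the submitters' processing notes, and the counter and its strand setting are not given in the sources used here. Of the 55487 gene identifiers, 55094 matched GENCODE M21 (GRCm38) in their version too, and positions are from there. Genes that overlap the regulators held at most 0.184% of a regulator's counts.

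From the counts, 14535 genes kept by filterByExpr were fitted in edgeR 4.0.16 (R 4.3.3) with the quasi-likelihood test, TMM factors, 1 coefficient per group over all 24 libraries and 16 residual degrees of freedom. A call is a Benjamini-Hochberg adjusted p under 0.05 over all genes tested, two-sided, in 13 comparisons. CPM is relative to library size with TMM factors. Intervals (95%) are the log2 fold change and its SE with a t quantile at 16 degrees of freedom. DESeq2 1.42.0 and limma 3.58.1 (voom with a block; trend on log2(TPM + 1) and log2(TPM + 0.1)) were alternatives, beside other factors, filters, an Xist covariate, and the omission of libraries. The script was tested on simulated data. The regulators, gene lists, motifs and tests were chosen with earlier results of these data known. All 10 regulators are named, and from the other lists the genes with the largest changes past the threshold, up to 3 per direction and with a mean log2 CPM above 1; 1 gene so chosen is not reported here. Motifs were searched in RefSeq promoters of GRCm38.p6.

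The labels give each library a mouse number, which would pair days within a genotype. For libraries of 1 number, the deviations from the group means (10680 genes) correlated with a mean r of 0.28, 0.37 and 0.22 for WT 63, 65 and 66, and of -0.084, -0.0037 and 0.16 for KO 64, 67 and 68, with a lowest r of -0.78. None of the KO numbers kept 1 Ddx3y state across days, so only the WT numbers are taken to pair libraries. P-values rest on 1 spread between libraries per gene, shared by the 8 groups, so tests between WT days also carry the KO spread. For Dpp4 on day 8 the SD of log2 CPM was 0.15 in WT and 1.23 in KO. With repeated days of the same mice, the unblocked fit treats those libraries as independent.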

Additional observations from a re-analysis of the deposited data

How the results depend on the processing

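Of 130 results (10 regulators in 13 comparisons), 28 were called, and 18 of these were called in each of 17 alternatives; no called result changed sign, and 39 of the 102 uncalled ones did. Spi1 in KO from day 7 to day 10 turned from -0.05 to 0.26 on log2(TPM + 1) and 0.26 on log2(TPM + 0.1). Counts of regulators called moved as follows. Between genotypes on day 7 the count went from 0 to 1 with DESeq2 and to 1 without a filter. With only the compared libraries fitted it was 4 in place of 7 from day 7 to day 10 in KO, 4 in place of 7 from day 7 to day 8 in KO, and, in place of 0, 6 from day 8 to day 9 and 4 from day 9 to day 10 in WT. From day 8 to day 9 in WT it was also 2 with DESeq2, 2 without a filter, 1 on log2(TPM + 1), 1 on log2(TPM + 0.1), 2 with Xist as a covariate and 3 with exchanged KO numbers. Leaving out 1 mouse number at a time, which in KO is not 1 animal, gave 7 to 8 (day 7 to 10, WT), 4 to 8 (KO), 3 to 6 (day 7 to 8, WT), 4 to 6 (KO), 0 to 4 (day 8 to 9, WT), 0 to 3 (day 9 to 10, WT) and 0 to 4 (KO). Without the high-Ddx3y libraries, an omission chosen after seeing the data, 5 of the 10 were called in KO from day 7 to day 10 and 5 from day 7 to day 8.

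With mouse number as a replicate block (limma voom, consensus correlation 0.00464) the call of Zbtb46 from day 7 to day 8 in KO was lost (1.02, adjusted p = 0.19), and the block changed no other call of the 10. At that correlation the fit is nearly unblocked, and it uses KO numbers that did not keep together across days. The unchanged calls therefore do not test the pairing of days. After exchanging KO numbers on days 8 and 10 so that high Ddx3y stays under 1 number (chosen after seeing the data; correlation 0.23), 1 regulator was called from day 9 to day 10 in WT and 1 in KO.

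Counts over all genes moved more. On day 7 between genotypes 211 became 11 to 351 without 1 number and 120 to 523 in the other alternatives. On days 8, 9 and 10 they were 1, 1 and 2, and reached 30, 90 and 82. The interaction gave 9, with 0 to 37. From day 8 to day 9, 785 (WT) ranged from 17 to 2180 and 338 (KO) from 0 to 1295. From day 9 to day 10, 523 (WT) ranged from 0 to 1124 and 14 (KO) from 0 to 2090. From day 7 to day 10, 5376 (WT) fell to 3255 and 5353 (KO) to 3201 without 1 number. On the TPM scale the median of all genes moved by 0.21 (WT) and 0.25 (KO) from day 7 to day 10. Depth was low for Flt3 (21 to 200 counts per library), and its interval between genotypes on day 7 ran from -0.07 to 2.25, while that of Dpp4 ran from -0.29 to 2.20.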
